A study of Mus musculus with 8 samples.

Results

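The 10 genes described here encode cell adhesion molecules of the bone marrow stroma: Vcam1, Icam1, Icam2, Ncam1, Alcam, Mcam, Cdh2, Cdh11, Cd44 and Emb. Their rows were looked up by symbol and Ensembl identifier in the deposited table of 52636 genes, and all 10 were found. No measured value entered the list of names, but the list was drawn up with earlier results of these data known. The cells were bone marrow mesenchymal stem and progenitor cells (MSPCs), which feed and hold hematopoietic stem and progenitor cells. They came from 8 C57BL/6 mice, with 1 library per mouse, and were sorted for PDGFRα and for GFP driven by the SCF gene, after exclusion of cells with the blood markers CD45 and Ter119 or the endothelial markers CD31 and CD144. The 4 control mice (CTR) were Flk2-cre+ Cxcr4fl/+ and the 4 knockout mice (cKO) were Flk2-cre+ Cxcr4fl/fl, so that both groups carried the Cre transgene, at least 1 floxed Cxcr4 allele and the GFP reporter of Kitl, the gene of SCF. The study also used a Kitl GFP allele to reduce SCF. In its cKO mice that allele brought membrane-bound SCF and hematopoietic stem cell numbers back to control levels. Flk2-cre recombines in multipotent hematopoietic progenitors and the blood cells that derive from them, so the mutated cells were not the cells that were sequenced. The labels give an age of 6 weeks for every mouse, whereas the study's methods state an older range for its mice. The comparison asks whether the adhesion genes of niche cells differ when Cxcr4, the receptor for CXCL12, is missing from the blood progenitors around them.

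Adhesion molecules of stroma work by contact. The immunoglobulin-type members Vcam1, Icam1 and Icam2 are bound by integrins on blood cells, Alcam binds CD6 and itself, Ncam1 binds itself and FGF receptors, and Mcam binds laminin and galectins. Classical cadherins such as Cdh2 and Cdh11 bind the same kind of cadherin on the neighboring cell and are anchored to actin through catenins, while Cd44 binds hyaluronan and osteopontin in the matrix. Emb, the small immunoglobulin protein embigin, accompanies monocarboxylate transporters and has been linked to the localization of hematopoietic progenitors in the marrow. Vcam1 is widely used as a surface marker of marrow stroma that retains hematopoietic cells.

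Total counts lay between 31047344 and 38216877 per library, and no pair of libraries agreed within sampling noise. Levels are given as CPM (counts in 1000000 library counts), scaled between libraries by the TMM method. Of the MSPC markers, 8 of 8 were above 0, and their summed level was 51034 to 64004 CPM, of which Cxcl12 made 44703 CPM and Lepr 4419 CPM on average over the 8 libraries. Pdgfra and Kitl are among these markers and were also used for the sort, Kitl through its GFP. Osteolineage markers, 10 genes of a lineage that MSPCs give rise to, summed to 8548 to 14460 CPM, most of it Ibsp (10664 CPM on average), and the markers of other cells to less. The sum over 14 endothelial markers was 5.82 to 12.8 CPM, with Tek and Sox17 at 0 in every library, the sum over 24 hematopoietic markers 97.9 to 337 CPM, the sum over 10 mural cell markers 435 to 589 CPM, most of it Notch3 (351 CPM on average) and Abcc9 (124 CPM), and the sum over 7 Schwann cell markers 0.279 to 9.28 CPM, with Foxd3 at 0. None of these sums passed 0.05 between genotypes in the two-sided exact permutation test (p = 0.343 for the osteolineage markers, 0.229 for the hematopoietic markers, 0.686 for the endothelial markers, 0.771 for the mural cell markers and 1.00 for the Schwann cell markers). Each sample's title carries a number, which is 78, 32, 71 and 27 for CTR replicates 1 to 4 and 86, 31, 67 and 26 for cKO replicates 1 to 4, so that replicates 2 and 4 of both genotypes form a range of 26 to 32 and replicates 1 and 3 a range of 67 to 86, with no meaning given in the labels.

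The members covered the whole range of expression, from a gene near the top of the transcriptome to genes at the limit of detection. To compare genes, CPM was divided by the length of the merged exons in kilobases. On this scale Vcam1 had the highest level, 466 ± 28.6 CPM per kb (SD, n = 8 libraries), rank 63 of 14575 genes that were tested and have a length. Cdh11 followed at 262 ± 14.4 CPM per kb (rank 112), Cdh2 at 73.5 ± 6.50 (rank 528) and Emb at 31.9 ± 3.86 (rank 1481). The ranges over libraries of these 4 genes did not overlap, so their order was the same in every mouse. Ncam1 (17.9 ± 1.96 CPM per kb) and Icam1 (17.5 ± 6.42) overlapped, and their order turned when the longest transcript was used as the length (23.6 for Ncam1 and 30.1 for Icam1). Cd44, at 4.46 ± 1.14 CPM per kb, lay close to the median of 4.57 over all genes tested, and 6 of the 10 members lay above this median. Mcam, Icam2 and Alcam were at most 1.08 CPM per kb in every library and overlapped each other.

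**Figure D1:**
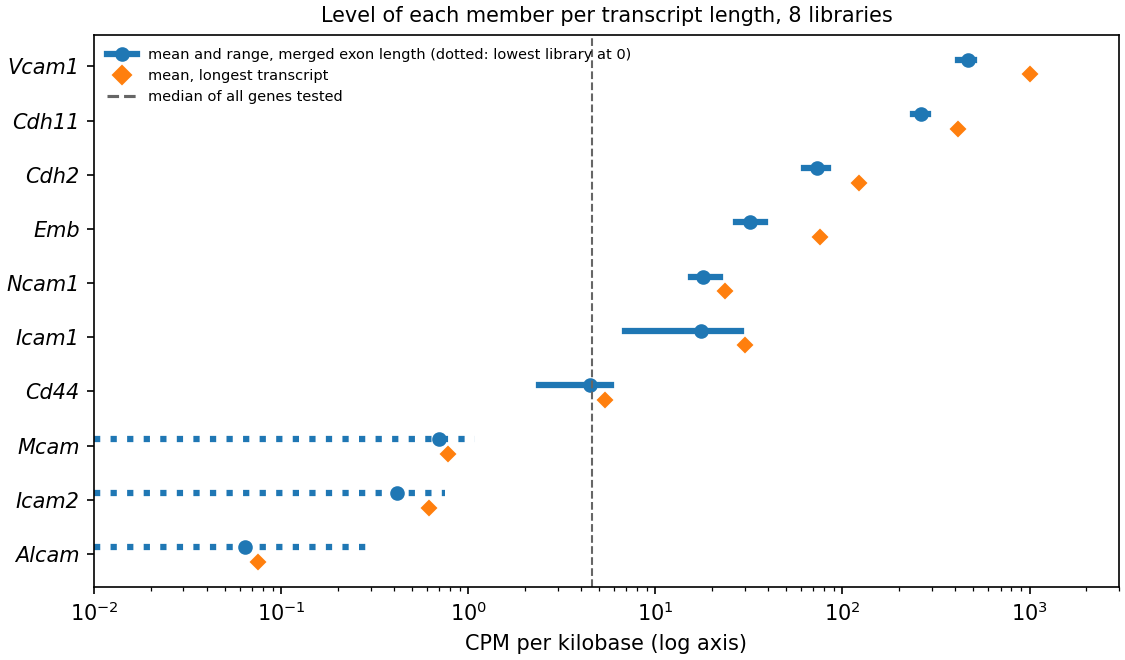
Level of each member in CPM per kilobase (log axis), as the mean and the range over 8 libraries for the merged exon length, and as the mean for the longest transcript. Vcam1, Cdh11, Cdh2 and Emb stand in separate ranges from 466 down to 31.9, Ncam1 and Icam1 overlap, Cd44 lies at the dashed median of all genes tested (4.57), and dotted bars mark the 3 members listed at 0 in at least 1 library.

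Among the cadherins, Cdh2 and Cdh11 made up most of the signal, while Vcam1 had the largest single share of the immunoglobulin-type molecules. Cdh2 and Cdh11 together took 97.5% to 99.3% of the summed CPM per kb of 22 cadherins in the 8 libraries, and the next cadherin was Cdh15 at 3.08 CPM per kb. Across 4 mice each, this share was 98.2% ± 0.762 (SD) for CTR and 98.7% ± 0.515 (SD) for cKO. Of 37 immunoglobulin-type adhesion molecules, Vcam1 alone took 37.8% to 44.0%, followed by Bsg, the transporter partner basigin, at 337 CPM per kb. The merged length counts every annotated exon base and is more than the length of the main transcript for several members, so that with the longest transcript Vcam1 stood at 1012 and Cdh11 at 413 CPM per kb, in the same order.

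Vcam1 (ENSMUSG00000027962.14, chromosome 3 of GRCm38 from 116109949 to 116129688, minus strand) encodes the ligand of the integrin VLA-4. It stood at 3657, 3980, 4470 and 4251 CPM in CTR replicates 1 to 4 and at 4277, 4254, 3969 and 4243 CPM in cKO replicates 1 to 4. The genotypes overlapped fully, since the cKO values lay inside the range of the CTR values. The log2 fold change (cKO over CTR) was 0.03 with a standard error of 0.10, and the 95% interval allowed a ratio between 0.876 and 1.20. Vcam1 varied little between mice, with a coefficient of variation of 6.14% over the 8 libraries, and 2.62% of 9398 genes that averaged 10 CPM or more varied less. Gene counts do not separate its transmembrane form from shorter forms. The antisense gene Gm43109 shares 61 exon bases with Vcam1, 0.688% of its exon length, and had 989 to 1783 counts.

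Icam1 (ENSMUSG00000037405.8, chromosome 9 from 21015985 to 21028817, plus strand) encodes a ligand of the leukocyte integrins LFA-1 and Mac-1 and is known to respond to inflammatory signals. It was the most variable of the 7 members tested and had the widest genotype interval of those tested. Its values were 84.6, 76.3, 78.5 and 126 CPM in CTR replicates 1 to 4. In cKO replicates 1 to 4 they were 29.9, 59.0, 61.7 and 94.2 CPM. Of the cKO libraries, 3 lay below every CTR library and cKO replicate 4 lay above 3 of the CTR libraries, so the groups overlapped. The mean was 91.3 ± 23.2 CPM for CTR and 61.2 ± 26.3 CPM for cKO (SD over 4 mice each), with a log2 fold change of -0.58 (standard error 0.30, 95% interval -1.24 to 0.09). The difference did not pass the threshold (edgeR's quasi-likelihood F-test, unadjusted p = 0.0826, Benjamini-Hochberg adjusted p = 1.00, and two-sided exact permutation test, p = 0.114). Single mice moved it, to -0.35 when cKO replicate 1 was left out (unadjusted p = 0.153 in edgeR), to -0.38 when CTR replicate 4 was, and to -0.85 when cKO replicate 4 was (unadjusted p = 0.0120 in edgeR, adjusted p = 1.00). The difference of mean log2 CPM (cKO minus CTR) was negative in both title number groups, at -0.39 in 26 to 32 and -0.92 in 67 to 86. With that group as a term, the unadjusted p was 0.0446 in edgeR (adjusted p = 0.921) and 0.0178 in DESeq2's likelihood ratio test (adjusted p = 0.577). Over the 8 libraries its coefficient of variation was 36.7%, and 95% of the genes that averaged 10 CPM or more varied less.

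The antisense gene Gm47079 runs opposite to Icam1 and shares 511 exon bases with it, 11.7% of the exon length of Icam1. It had 492, 553, 538 and 882 counts in CTR replicates 1 to 4 and 164, 350, 361 and 736 in cKO replicates 1 to 4. CTR replicate 4 was the highest and cKO replicate 1 the lowest library for both genes, and Gm47079 had a log2 fold change of -0.70 (standard error 0.35, edgeR unadjusted p = 0.0749, adjusted p = 1.00). Whether the counting used the strand is not given in the sources used here. Without strand, reads that lie on the shared bases cannot be assigned to one gene or the other.

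The promoters of Icam1 and Cd44, the most variable of the 7 members tested, are shown to place the known control elements of Icam1. They come from RefSeq on GRCm38.p6 and run from 250 bases before to 50 bases after the RefSeq start. The Icam1 window is chr9:21015690-21015989 on the plus strand and the Cd44 window chr2:102901616-102901915 on the minus strand, both written 5′ to 3′. Capitals mark matches to GGAAATTCC (a sequence of the kind NF-κB binds), TTCNNNGAA (the STAT type) and TATAAA (the TATA box).
Icam1: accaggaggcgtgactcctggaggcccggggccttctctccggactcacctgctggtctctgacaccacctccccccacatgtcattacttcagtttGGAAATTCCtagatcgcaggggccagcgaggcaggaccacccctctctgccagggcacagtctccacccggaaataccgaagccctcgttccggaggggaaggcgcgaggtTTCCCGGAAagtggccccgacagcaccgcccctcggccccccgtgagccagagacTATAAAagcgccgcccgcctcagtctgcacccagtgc
Cd44: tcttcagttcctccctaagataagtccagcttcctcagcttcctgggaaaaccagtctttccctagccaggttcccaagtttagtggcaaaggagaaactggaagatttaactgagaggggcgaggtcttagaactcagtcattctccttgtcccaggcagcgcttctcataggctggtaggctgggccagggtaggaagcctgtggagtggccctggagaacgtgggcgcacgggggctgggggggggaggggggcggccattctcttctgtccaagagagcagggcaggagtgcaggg
In the Icam1 window, GGAAATTCC lies at -153 to -145 from the start, TTCNNNGAA at -42 to -34 and TATAAA at 14 to 19. This RefSeq start is 45 bases upstream of the start of the gene model used for the coordinates above, from which the matches lie at -198 to -190, -87 to -79 and -32 to -27, whereas the 2 starts agree for Cd44. Of 32851 promoter windows of this length, 0.317% hold GGAAATTCC on either strand, 8.30% TTCNNNGAA and 13.6% TATAAA. The Cd44 window holds none of these 3, nor TGANTCA (AP-1 type, in 7.81% of windows and also not in the Icam1 window), and both windows hold GGGCGG (Sp1 type, 35.7% of windows, left in lower case). The guanine and cytosine content is 64.7% for Icam1 and 58.0% for Cd44, against a median of 52.7% over all windows, and the observed to expected ratio of CpG is 0.62 for Icam1 and 0.25 for Cd44 against a median of 0.38. The sequence tables matched 5 of the 10 members, the others being Alcam, Mcam and Emb. These matches describe the letters and not the use of a site in MSPCs.

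Icam2 (ENSMUSG00000001029.15, chromosome 11 from 106377656 to 106388075), which binds LFA-1 and is best known from endothelium and platelets, had 44, 9, 46 and 11 counts in CTR replicates 1 to 4 and 0, 14, 41 and 47 counts in cKO replicates 1 to 4. These counts scatter by as much within a genotype as between them. Without a filter on counts, its log2 fold change was -0.24 with a standard error of 1.16, which cannot show a difference at this depth. Endothelial RNA was also low, with Pecam1 (CD31, used for the sort) at 0 to 52 counts and Cdh5 (CD144, used for the sort) at 0 to 20 counts, and the part of endothelial RNA in the Icam2 counts was not tested.

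Ncam1 (ENSMUSG00000039542.16, chromosome 9 from 49502136 to 49798925, minus strand), the neural cell adhesion molecule, was at 134, 158, 150 and 155 CPM in CTR replicates 1 to 4 and at 155, 143, 192 and 151 CPM in cKO replicates 1 to 4. A single cKO library, replicate 3, stood above all others and the remaining 7 lay between 134 and 158 CPM. The log2 fold change was 0.10 (standard error 0.11), and the interval covered ratios from 0.902 to 1.28. Without cKO replicate 3 it was 0.0077. Schwann cells also express Ncam1. Their markers summed to at most 2.16 CPM in 7 libraries, and the library with the highest sum, CTR replicate 2 with 9.28 CPM, had the highest Ncam1 value of the CTR libraries (158 CPM). The part of Schwann cell RNA in the Ncam1 values was not tested.

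Alcam (ENSMUSG00000022636.13, chromosome 16 from 52248996 to 52454074), whose partner CD6 sits on lymphocytes, was the member closest to absence. It had 9, 0, 65 and 33 counts in CTR replicates 1 to 4 and 0, 9, 0 and 7 counts in cKO replicates 1 to 4. The highest values were in the CTR mice, but the groups overlapped and 3 of the 8 libraries were listed at 0. Its log2 fold change of -2.81 had a standard error of 1.66 without a filter on counts (adjusted p = 0.749 in edgeR).

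Mcam (ENSMUSG00000032135.15, chromosome 9 from 44134469 to 44142727), or CD146, marks human marrow stromal cells and, in many tissues, endothelium and pericytes. It was listed at 0 in CTR replicate 1 and had 81, 98 and 104 counts in CTR replicates 2 to 4 and 119, 77, 63 and 102 counts in cKO replicates 1 to 4. Apart from the single 0, the libraries lay within 63 to 119 counts. The log2 fold change was 0.33 (standard error 0.94) with all libraries and -0.086 without CTR replicate 1. Such isolated zeros occur elsewhere in the table, where 160 of 12630 genes with a median of at least 50 counts were listed at 0 in some library, and 123 of them in 1 library only. Read as a plain count, a 0 would allow up to 0.0966 CPM in CTR replicate 1 (3 counts), but a 0 beside such values may be a failed estimate, which was not tested.

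The cadherins Cdh2 (N-cadherin, ENSMUSG00000024304.14) and Cdh11 (OB-cadherin, ENSMUSG00000031673.6, chromosome 8 from 102632095 to 102785642, minus strand) are both known from mesenchymal and osteoblast lineage cells. Cdh2 was at 503, 594, 570 and 676 CPM in CTR replicates 1 to 4 and at 572, 646, 576 and 604 CPM in cKO replicates 1 to 4. Cdh11 was at 2391, 2126, 2307 and 2549 CPM in CTR replicates 1 to 4 and at 2418, 2225, 2355 and 2288 CPM in cKO replicates 1 to 4. For both genes every cKO value lay inside the CTR range. The log2 fold change of Cdh2 was 0.03 (standard error 0.11, ratio 0.868 to 1.21). That of Cdh11 was -0.013 (standard error 0.094, ratio 0.857 to 1.15). Cdh11 was the least variable of the 10 members, with a coefficient of variation of 5.50% over the 8 libraries, and 1.44% of the genes that averaged 10 CPM or more varied less.

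Cd44 (ENSMUSG00000005087.17, chromosome 2 from 102811141 to 102901665, minus strand), the hyaluronan receptor, is abundant on blood cells and many stromal cells. Its values were 39.4, 38.3, 30.4 and 28.3 CPM in CTR replicates 1 to 4 and 23.4, 30.5, 16.2 and 35.2 CPM in cKO replicates 1 to 4. The cKO libraries with the lowest values, replicates 1 and 3, lay below every CTR library, while replicates 2 and 4 lay within the CTR range. The mean was 34.1 ± 5.56 CPM for CTR and 26.3 ± 8.29 CPM for cKO (SD over 4 mice each), and the log2 fold change was -0.37 (standard error 0.23, 95% interval -0.89 to 0.14). It did not pass the threshold (unadjusted p = 0.137 and adjusted p = 1.00 in edgeR; two-sided exact permutation test, p = 0.171). It moved to -0.20 when cKO replicate 3 was left out and to -0.54 when cKO replicate 4 was (unadjusted p = 0.0446 in edgeR, adjusted p = 1.00). The summed hematopoietic markers were highest, at 337 CPM, in cKO replicate 3, the library with the least Cd44, and next highest, at 300.4 CPM, in CTR replicate 1, the library with the most Cd44. The part of blood cell RNA in the Cd44 values was not tested. Splice forms of Cd44 are not separated by gene counts.

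Emb (ENSMUSG00000021728.8, chromosome 13 from 117208536 to 117274415, plus strand) was at 195, 267, 187 and 214 CPM in CTR replicates 1 to 4 and at 214, 250, 214 and 224 CPM in cKO replicates 1 to 4. All cKO values lay inside the CTR range, and the log2 fold change was 0.06 (standard error 0.12, ratio 0.862 to 1.27). The gene Gm17509 lies inside Emb on the opposite strand, shares 9.93% of its exon bases and had 184 to 325 counts.

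**Figure D2:**
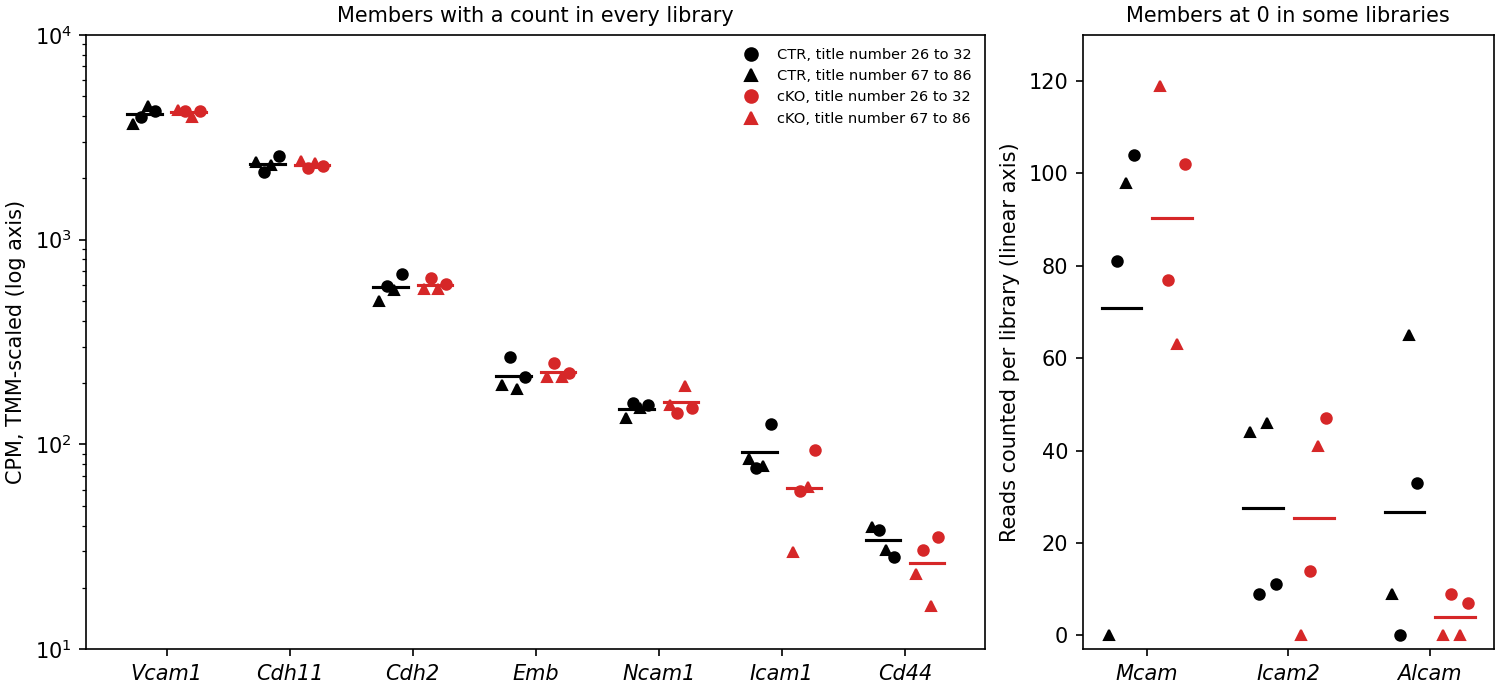
Each point is 1 library, black for CTR and red for cKO, with circles for title numbers 26 to 32 and triangles for 67 to 86, and bars mark the mean of 4 libraries. The left axis gives TMM-scaled CPM on a log axis for the 7 members listed above 0 in each library, where the genotypes overlap for each gene, and the right axis gives counts on a linear axis for Mcam, Icam2 and Alcam, which reach at most 119, 47 and 65 counts.

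None of the members tested passed the threshold between CTR and cKO MSPCs, and the libraries of the genotypes overlapped for each. A test was run on the 14598 genes that no library lists at 0, which include 7 members and leave out Icam2, Alcam and Mcam. In edgeR's quasi-likelihood F-test, 0 of the 7 passed 0.05 after Benjamini-Hochberg adjustment (adjusted p = 1.00 for each), where 0% of all genes did. None of the 7 had an unadjusted p under 0.05 in this fit, against 4.37% of all genes (2.15% lower and 2.22% higher in cKO). Without a title number term, DESeq2's Wald and likelihood ratio tests and limma-voom also called 0 members at either level. With that term, edgeR and DESeq2's likelihood ratio test each called 1 member, Icam1, at the unadjusted level and 0 after adjustment. The same held for edgeR with the replicate number as a block. The cKO libraries lay entirely on one side of the CTR libraries for 0 members and for 2.67% of all genes. Of the 7, 4 were higher and 3 lower in cKO, and 51.1% of all genes were lower. The median log2 fold change of the 7 was 0.03, against -0.0055 over all genes tested. For 6 of the 7, all but Icam1, the 95% interval lay within a factor of 2 in either direction, as it did for 71.7% of all genes. In RNA from sorted cells, fewer cells with a transcript and less transcript per cell cannot be told apart. The p-values set the genotype difference against the variation between these 8 mice.

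**Figure D3:**
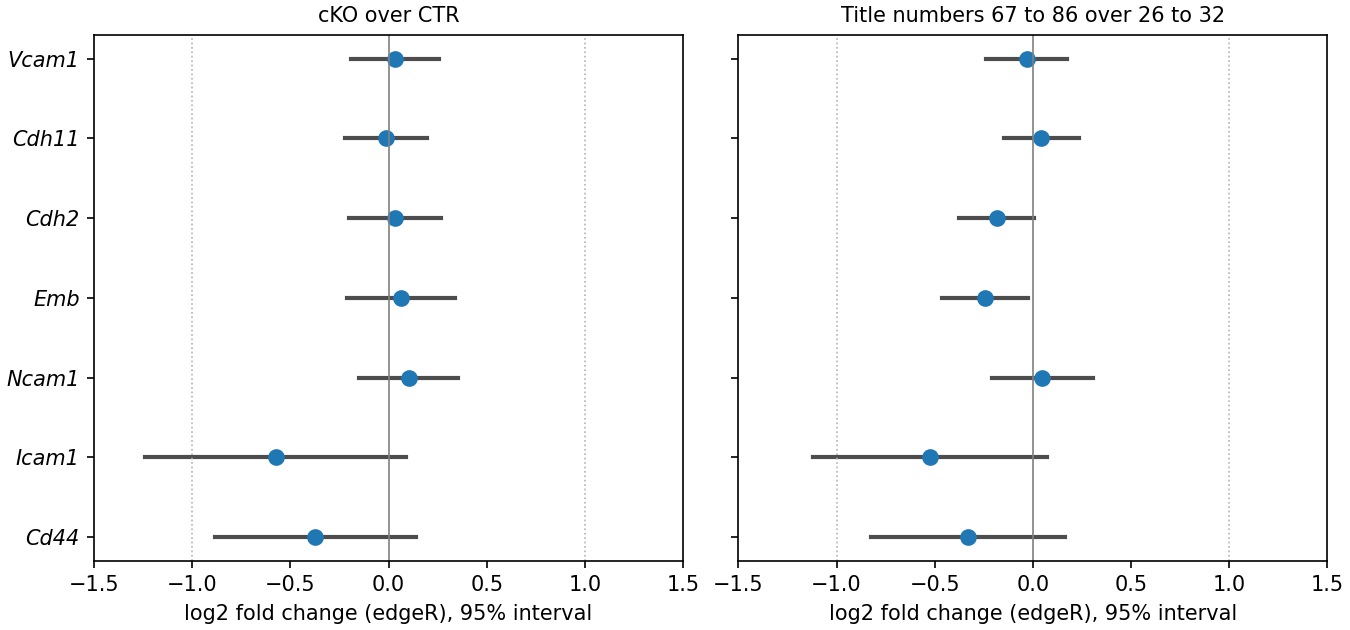
log2 fold change from edgeR (points) with its 95% interval (bars) for the 7 members tested, cKO over CTR on the left and title numbers 67 to 86 over 26 to 32 on the right. On the left every interval includes 0, and those of Icam1 (-1.24 to 0.09) and Cd44 (-0.89 to 0.14) are the widest, and on the right only that of Emb (-0.46 to -0.023) leaves 0 out.

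Between the title number groups, 5 of the 7 members were lower in 67 to 86, as were 50.9% of all genes. In a model with both terms, 0 members passed 0.05 for 67 to 86 over 26 to 32, and 2 genes in all did (0.0137%). Emb had a log2 difference of -0.24 (standard error 0.097, unadjusted p = 0.0337 and adjusted p = 0.391 in edgeR) and was the only member with an unadjusted p under 0.05, as were 11.6% of all genes. Its values lay between 214.4 and 266.9 CPM in 26 to 32 and between 186.7 and 213.7 CPM in 67 to 86. Cdh2 lay between 594 and 676 CPM in 26 to 32 and between 503 and 576 CPM in 67 to 86, with a log2 difference of -0.18 (standard error 0.084, unadjusted p = 0.0583 and adjusted p = 0.448 in edgeR). These were the 2 members whose libraries did not overlap between title number groups, as was the case for 6.86% of all genes. The summed osteolineage markers, mostly Ibsp, also did not overlap, at 11617 to 14460 CPM in 26 to 32 and 8548 to 11260 CPM in 67 to 86 (p = 0.0286 in the two-sided exact permutation test, the lowest value possible with 4 libraries against 4). Ibsp itself had a log2 difference of -0.44 for 67 to 86 over 26 to 32 (standard error 0.12). The median over the 8 osteolineage markers tested was 0.33, in the other direction. The part of osteolineage RNA in the Cdh2 and Emb values was not tested.

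Whether the genotype difference itself depended on the title number group was tested with an interaction term. No member passed 0.05, and 0% of all genes did, with 3.43% of all genes and 0 members at an unadjusted p under 0.05 in edgeR. The largest interaction among the members was that of Cd44 (interaction -0.80, standard error 0.36, unadjusted p = 0.0597 and adjusted p = 1.00 in edgeR). Its difference of mean log2 CPM (cKO minus CTR) was -0.0073 in 26 to 32 and -0.83 in 67 to 86. Each genotype has 2 libraries in each title number group.

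The molecules that the members bind, or are anchored or cut by, gave a view of the rest of the adhesion machinery, from 5 lists with 91 genes in all. None of the genes tested in these lists passed 0.05 between genotypes in edgeR, where 0% of all genes did. An unadjusted p under 0.05 was found for 2, against 4.37% of all genes tested. They were 1 of 13 binding partners tested and 1 of 14 other immunoglobulin-type molecules tested. The other lists had 0 of 12 cytoplasmic linkers, 0 of 8 sheddases and 0 of 4 other cadherins tested. Lower values in cKO were found for 51.1% of all genes tested. Of the binding partners, 13 of 20 were tested, 5 of them lower in cKO, with a median log2 fold change of 0.06. Spp1 (osteopontin, bound by Cd44 and integrins) was the most abundant at 1552 CPM on average, followed by the integrin chain Itgb1 at 1266 CPM. Lama4, the laminin chain bound by Mcam, averaged 361 ± 35.9 CPM for CTR and 284 ± 61.9 CPM for cKO (SD over 4 mice each, log2 fold change -0.35, standard error 0.15, unadjusted p = 0.0471 and adjusted p = 1.00 in edgeR). S100a8, made by neutrophils, had a log2 fold change of 0.67 (standard error 0.41) and is also among the hematopoietic markers. The chains of the leukocyte integrins, named here after their values were seen, were near 0 in the stroma itself, with Itga4 at 0 to 67, Itgal at 0 to 106, Itgam at 0 to 7 and Itgb2 at 13 to 80 counts, and Itgb7 at 0 throughout. The hyaluronan synthases, named in the same way, were also low, with Has1 at 0 to 4, Has2 at 0 to 110 and Has3 at 155 to 249 counts.

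All 12 cytoplasmic linkers, the catenins and actin adaptors below cadherins and immunoglobulin-type molecules, were tested. Values were lower in cKO for 10 of them, and for 51.1% of all genes tested. Their median log2 fold change was -0.11, against -0.0055 over all genes tested. The values were small, at -0.32 (standard error 0.20) for Ctnnb1 (β-catenin), -0.22 (standard error 0.13) for Ctnnd1 (p120 catenin), -0.097 (standard error 0.10) for Actn4 and -0.063 (standard error 0.14) for Vcl (vinculin), and none of the 12 had an unadjusted p under 0.05. Of 9 sheddases, the proteases that release adhesion molecules from the surface, 8 were tested and 5 were lower, with a median of -0.055. The most abundant were Mmp14 at 626 CPM (log2 fold change 0.11, standard error 0.087) and Adam9 at 222 CPM (-0.15, standard error 0.13), and Bace1 had 0.20 (standard error 0.12).

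Of the 20 other cadherins, 4 were above 0 in each library and 10 were at 0 in all. Cdh15 (M-cadherin) averaged 10.02 CPM, Cdh13 7.30 CPM and Cdh24 2.00 CPM, with log2 fold changes of -0.45, -0.43 and 0.46 and standard errors of 0.63, 0.32 and 0.37. Of 30 other immunoglobulin-type molecules, 14 were tested and 7 were lower, with a median of 0.0081. Bsg was at 612 CPM on average and Cd47, the signal against phagocytosis, at 455 CPM, with log2 fold changes of 0.02 and -0.0062. Nectin3, which pairs nectins between neighboring cells, averaged 43.8 ± 7.51 CPM for CTR and 64.8 ± 16.7 CPM for cKO (SD over 4 mice each, log2 fold change 0.56, standard error 0.20, unadjusted p = 0.0183 and adjusted p = 1.00 in edgeR), and Cadm1 had 0.45 (standard error 0.34).

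**Figure D4:**
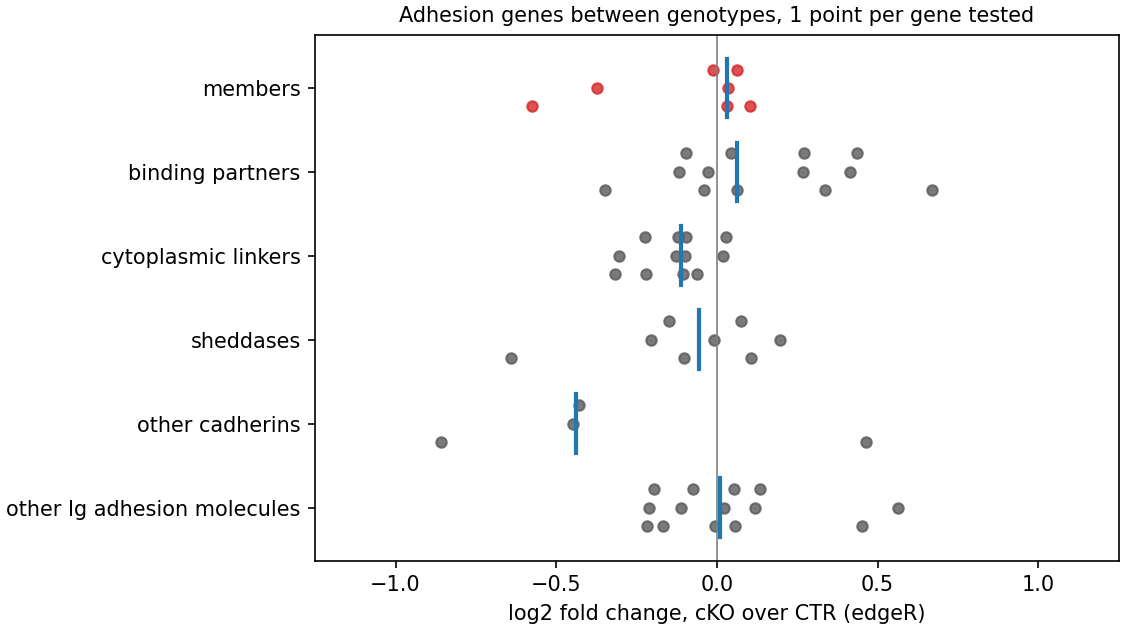
log2 fold change (cKO over CTR, edgeR) of every gene tested in the members and the 5 adhesion lists, 1 point per gene, with the list median as a blue line. Medians lie at 0.03 for the members, 0.06 for the binding partners, -0.11 for the linkers, -0.055 for the sheddases, -0.44 for the 4 other cadherins and 0.0081 for the other immunoglobulin-type molecules, and no gene passed 0.05.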

How the data were processed

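Poly(A) RNA of sorted MSPCs was sequenced, with 1 library for each of 8 mice (4 CTR, 4 cKO). Per the labels and methods, the authors trimmed the paired reads, used HISAT2 for alignment to GRCm38 (mm10) and HTSeq-count for counting, and deposited raw counts per gene that are not normalized. Their versions are not given in the sources used here. Of the deposited counts from 1 to 20, 58.6% were odd, so no counting rule was assumed and a 0 was read as listed at 0.

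Libraries were scaled by TMM. Genes listed above 0 in each library (14598) entered the quasi-likelihood F-test of edgeR 4.0.16 under R 4.3.3, with all 8 libraries, no covariate, p-values adjusted after Benjamini and Hochberg over all genes tested, and a threshold of 0.05. The methods name DESeq2 with a correction for batch, but the labels define no batch. Title number groups were compared with genotype in the model. For members outside the filter, the fit without a filter was used. Exact permutation tests on log2 CPM (prior count 2) enumerated all 70 assignments. Lengths and coordinates came from GENCODE M21 on GRCm38, which matched 52403 genes by identifier. Total counts, of 31047344 to 38216877, set the precision of low genes.

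The members and lists were chosen with earlier results of these data known. Named genes were all members, genes that overlap them, and from each list the 2 with the highest mean CPM and the 2 with the smallest unadjusted p. Pecam1, Cdh5 and the other genes said to be named after their values were seen are exceptions. Alternatives were other scalings and filters, DESeq2 1.42.0, limma-voom (limma 3.58.1), a title number term, a replicate block, and each library left out in turn. Scripts were tested on simulated counts.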

Additional observations from a re-analysis of the deposited data

Results flagged for a closer look

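Within each genotype, the library farthest from the other 3 was examined for the 10 members and the summed marker lists, as its gap to the nearest library divided by the range of the 4. In 4 of 32 groups this ratio was beyond the critical value for 4 samples, where chance gives about 1 in 20, or 1.6 groups. Icam1 stood apart in CTR replicate 4 (ratio 0.831), the library with 126 CPM against 76.3 to 84.6 CPM in the other 3, and without it the log2 fold change of Icam1 was -0.38. Vcam1 stood apart in cKO replicate 3 (ratio 0.889), with 3969 CPM against 4243 to 4277 CPM in the other 3, which is still inside the CTR range. The summed endothelial markers stood apart in the same cKO replicate 3 (ratio 0.907), at 12.8 CPM against 7.94 to 8.39 CPM. The summed Schwann cell markers stood apart in CTR replicate 2 (ratio 0.901), at 9.28 CPM against 0.279 to 1.17 CPM.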

How the results depend on the processing

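The count of members past 0.05 was 0 under every alternative run, for genotype, for the title number groups and for their interaction, and that of the adhesion lists was 0 under every alternative run for genotype. Of 390 values recomputed under an alternative, 369 kept their direction and side of the threshold. Those that turned had log2 values near 0 or few counts. Without a filter, Icam2 turned from -0.24 to 0.15 once the title number group was added, in edgeR and in DESeq2's likelihood ratio test, and ranged from -0.64 to 0.18 with libraries left out. With libraries left out, the genotype values ranged from -0.013 to 0.079 for Vcam1, from -0.086 to 0.57 for Mcam, from -0.030 to 0.11 for Cdh2 and from -0.057 to 0.030 for Cdh11, and the title number differences from -0.094 to 0.024 for Vcam1 and from -0.054 to 0.12 for Ncam1. The cause was not tested. The 6 levels per kb that moved by more than their spread did so with the longest transcript as the length. Over all genes, edgeR called 0 between genotypes, 1 with filterByExpr or no filter, and DESeq2 called 23 (Wald), 22 (likelihood ratio) and 47 (likelihood ratio with the title number group). For the title number groups edgeR called 2 genes, 1 with DESeq2's size factors and 4 without a filter, and DESeq2 342, and for the interaction they called 0 and 20. With the replicate number as a block, 0 members passed 0.05, and Icam1 had -0.65 (unadjusted p = 0.0180 and adjusted p = 0.884 in edgeR). The deviations of same-numbered libraries correlated at 0.153, 0.185, 0.081 and 0.053, and 2 CTR libraries correlated best with another number, so the numbers were not taken as pairs. Those better matches lay in the same title number group. Between CTR and cKO libraries, every correlation was positive within a title number group (0.053 to 0.185). Across the groups every correlation was negative (-0.181 to -0.049). Depth limits Icam2, Alcam and Mcam, with medians of 27.5, 8 and 89.5 counts.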

Other observations

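Some mural cell genes were spread widely over the libraries. Rgs5, a pericyte gene, averaged 18.2 ± 8.91 CPM for CTR and 7.91 ± 5.36 CPM for cKO (SD over 4 mice each, log2 fold change -1.20, standard error 0.51, unadjusted p = 0.0411 and adjusted p = 1.00 in edgeR), and Acta2, the smooth muscle actin, at 4.52 ± 2.24 and 2.25 ± 0.994 CPM (-1.005, standard error 0.46, unadjusted p = 0.0542). Of the 7 mural cell markers tested, 5 had lower values in cKO, as did 51.1% of all genes tested. The more abundant mural cell genes Notch3 and Abcc9 had log2 fold changes of 0.08 and 0.13, with standard errors of 0.087 and 0.22. Of the 15 hematopoietic markers tested, 14 had higher values, with a median log2 fold change of 0.39. None of these 15 had an unadjusted p under 0.05 in edgeR. The sum over all hematopoietic markers did not pass 0.05 between genotypes (two-sided exact permutation test, p = 0.229). Rgs5 differed more between the title number groups, by -1.49 for 67 to 86 over 26 to 32 (standard error 0.23, adjusted p = 0.111 in edgeR).

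Adipoq, the adiponectin gene that marks MSPCs, had a log2 fold change of 0.30 (standard error 0.18) between genotypes, and Alpl, the alkaline phosphatase of the osteolineage, 0.33 (standard error 0.16, unadjusted p = 0.0754 and adjusted p = 1.00 in edgeR). The erythroid genes Hbb-bs (51.2 ± 21.8 CPM for CTR and 78.1 ± 28.4 CPM for cKO) and Hba-a1 (32.3 ± 12.5 and 46.4 ± 10.7 CPM) were the most abundant hematopoietic markers (SD over 4 mice each). Between the title number groups, Hbb-bs differed by 0.89 for 67 to 86 over 26 to 32 (standard error 0.19, unadjusted p = 0.00129 and adjusted p = 0.178 in edgeR). These differences did not pass 0.05 in edgeR.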
